A study of Homo sapiens with 6 samples.

Results

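Osteopontin (SPP1), matrix Gla protein (MGP), fibronectin (FN1), thrombospondin 1 (THBS1), tenascin C (TNC), TGFBI and SPARC are 7 secreted proteins of the extracellular matrix, and their transcripts were taken by gene symbol from a table of 58735 genes. SPP1 and MGP were chosen by their fold changes against si-NC in these same libraries, so their values are given as a description without a test. The other 5 were added as further matricellular proteins, with earlier results of these data known. All 7 were in the table, and all 7 passed the filter on low values, an FPKM of 1 or more in 2 or more libraries. FPKM counts fragments per kilobase of gene, scaled to library size. It uses 1 deposited length per gene, so a level compared between genes depends on that length.

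The RNA came from KYSE30, an established human cell line of oesophageal squamous cell carcinoma. Cells had received si-RAB23-9, si-RAB23-1 or the control siRNA si-NC, with 2 libraries in each of the 3 groups. All 3 groups were transfected with 100 nM siRNA by the same lipid reagent, so the si-NC cells carry an siRNA and the reagent too. RAB23, a small GTPase of the Rab family, is the target of both RAB23 siRNAs. The labels name the libraries of a group biological replicates without stating separate cultures, so a p-value here reflects only how these libraries vary, and that variation may be technical. With bulk RNA, fewer cells that carry a transcript and less of it per cell cannot be told apart.

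Matricellular proteins are secreted into the matrix but act mainly as signals: they bind integrins, CD44, syndecans, growth factors and proteases, and alter how firmly cells attach and migrate. Several are targets of TGF-beta, YAP or AP-1 signalling in epithelial and stromal cells. In squamous carcinomas tissue staining often places fibronectin, tenascin C and SPARC in the surrounding stroma, whereas the present libraries hold RNA of cultured cells alone.

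RAB23 stood at 1.18 and 1.27 FPKM with si-RAB23-9, at 1.03 and 1.10 FPKM with si-RAB23-1, and at 3.27 and 3.33 FPKM with si-NC. On the log2(FPKM + 1) scale it fell by -0.95 with si-RAB23-9 (limma adjusted p = 0.00392) and by -1.06 with si-RAB23-1 (limma adjusted p = 0.00314). Adding 1 shrinks the difference of a gene this low, so the FPKM levels themselves lie further apart than these values say. The recovered reads numbered 17211025 to 24178125 per library. Of 10 squamous markers, 9 averaged at least 1 FPKM, and the summed level of all 10, mostly SFN, was 411 to 414 FPKM with si-RAB23-9, 470 to 494 FPKM with si-RAB23-1 and 413 to 421 FPKM with si-NC. KRT5, a basal keratin, was the exception, at 0.0394 to 0.273 FPKM over the 6 libraries.

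SPP1, FN1 and THBS1 were all higher with si-RAB23-1 than with si-NC, and TNC was lower. TGFBI was also higher and SPARC lower there, and their windows were searched but are not printed. MGP, also higher, had no window. The bases just upstream of SPP1, FN1, THBS1 and TNC are shown, from RefSeq promoter windows on GRCh38.p14. They are read 5′ to 3′ on the gene's strand. Windows of 250 bases before to 50 bases after the RefSeq start were searched on both strands for TGANTCA (AP-1), TGACGTCA (cyclic AMP response element), GGAATG (TEAD core), AACCACA (RUNX), CCAAT and TATAAA. Capitals mark the matches. Each printed stretch ends just before the gene's first deposited base. For SPP1, FN1 and TNC that base lies upstream of the RefSeq start. The positions given below count from the RefSeq start and not from the end of the stretch. The regions are chr4:87975464-87975649 (+) for SPP1, chr2:215436173-215436318 (-) for FN1, chr15:39580829-39581078 (+) for THBS1 and chr9:115118258-115118407 (-) for TNC.
SPP1: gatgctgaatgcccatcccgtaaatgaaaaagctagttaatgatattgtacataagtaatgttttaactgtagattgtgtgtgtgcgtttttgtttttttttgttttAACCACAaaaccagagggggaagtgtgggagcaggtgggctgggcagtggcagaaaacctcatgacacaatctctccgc
FN1: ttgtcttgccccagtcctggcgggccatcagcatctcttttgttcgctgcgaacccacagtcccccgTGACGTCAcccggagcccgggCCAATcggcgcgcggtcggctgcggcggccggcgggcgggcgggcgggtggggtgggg
THBS1: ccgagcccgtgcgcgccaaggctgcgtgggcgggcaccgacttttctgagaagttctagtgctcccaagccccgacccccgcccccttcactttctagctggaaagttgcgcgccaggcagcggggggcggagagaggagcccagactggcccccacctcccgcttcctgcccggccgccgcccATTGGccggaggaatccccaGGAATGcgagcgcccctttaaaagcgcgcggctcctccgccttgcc
TNC: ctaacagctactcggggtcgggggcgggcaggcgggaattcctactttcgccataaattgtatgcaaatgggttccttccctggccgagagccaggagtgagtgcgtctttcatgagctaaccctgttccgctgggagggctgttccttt

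The SPP1 stretch holds AACCACA at 143 bases before the RefSeq start. The FN1 stretch holds TGACGTCA at 183 bases and CCAAT at 162 bases before the start. The THBS1 stretch holds CCAAT on the opposite strand (ATTGG) at 66 bases and GGAATG at 46 bases before it. Among 35116 windows of 300 bases, AACCACA lies in 4.27%, TGACGTCA in 1.85%, GGAATG in 14% and CCAAT in 34.6%. The motifs were chosen after the members' promoter sequences were seen, so these shares cannot tell how unusual a match is. TGANTCA and TATAAA, which lie in 7.71% and 11.5% of windows, had no match in the 6 members' windows searched. None of the 6 motifs had a match in the TNC or TGFBI window, and the SPARC window held GGAATG on the opposite strand at 17 bases before its start. No motif was shared by all of SPP1, FN1 and THBS1 in these windows, while CCAAT was in both FN1 and THBS1. These matches describe letters and not binding.

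**Figure D1:**
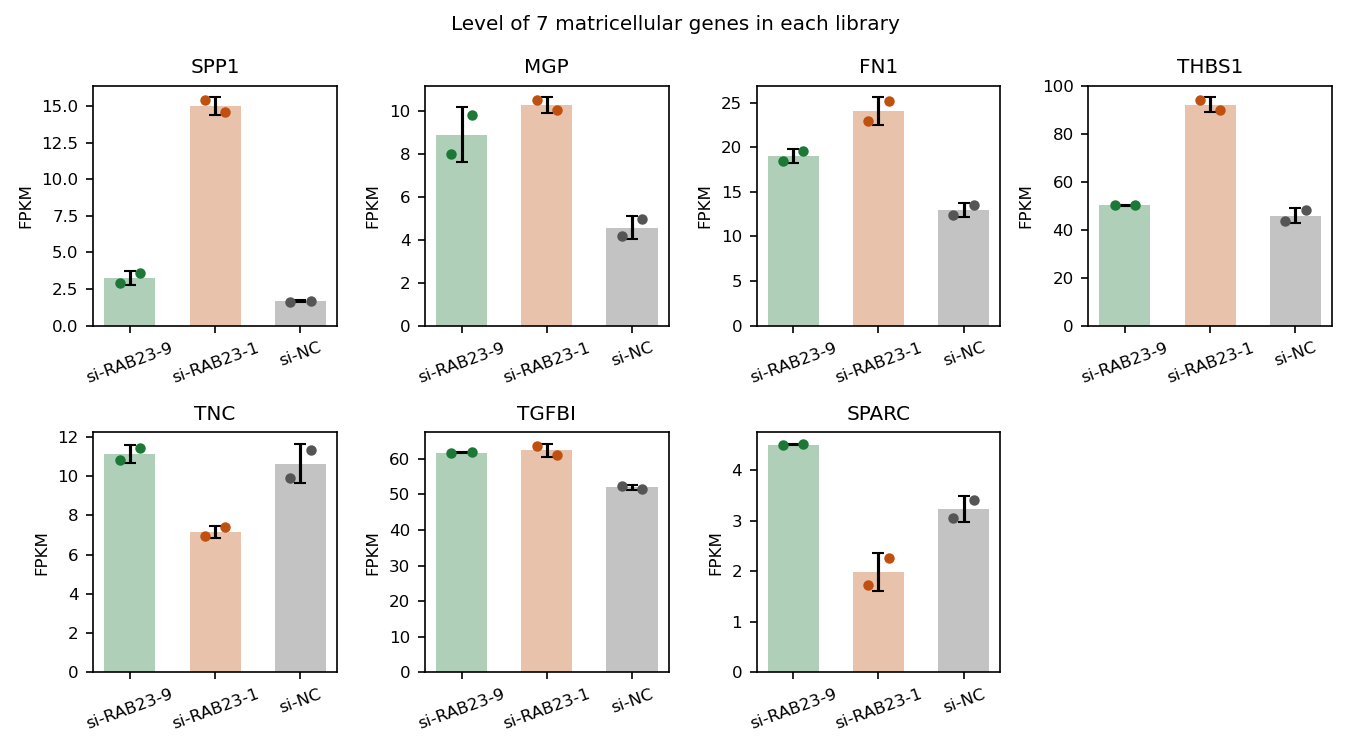
FPKM of each of the 7 genes (panels, linear axes from 0) in the si-RAB23-9, si-RAB23-1 and si-NC libraries. Points are single libraries, bars are group means and error bars are the SD of each group. SPP1 stands apart with si-RAB23-1 at 14.6 and 15.4 FPKM, while TNC and SPARC have their lowest values there.

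SPP1 (ENSG00000118785, chromosome 4, 87975650 to 87983426, plus strand) encodes osteopontin, an integrin and CD44 ligand first known from bone. It stood at 2.90 and 3.62 FPKM with si-RAB23-9, at 15.4 and 14.6 FPKM with si-RAB23-1, and at 1.62 and 1.72 FPKM with si-NC. The libraries with si-RAB23-1 were far above all others, those with si-RAB23-9 were above si-NC, and no groups overlapped. The mean was 1.95 times that of si-NC with si-RAB23-9 and 8.97 times with si-RAB23-1. These levels rest on 127 and 149 reads with si-RAB23-9, 593 and 752 reads with si-RAB23-1, and 90 and 78 reads with si-NC.

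On the log2(FPKM + 1) scale used for all fold changes here, SPP1 differed from si-NC by 0.67 with si-RAB23-9 and by 2.58 with si-RAB23-1 (standard error 0.09 for each). The fold change with si-RAB23-1 ranked 1 from the top of 14352 genes tested, and that with si-RAB23-9 ranked 165. Between the siRNAs, si-RAB23-9 minus si-RAB23-1 was -1.91, the lowest of all genes tested. Adding 1 to low FPKM values shrinks a fold change: with 0.1 added instead, the differences from si-NC were 0.91 with si-RAB23-9 and 3.09 with si-RAB23-1.

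MGP (ENSG00000111341, chromosome 12, 14881181 to 14885926, minus strand) encodes matrix Gla protein, a vitamin K-dependent inhibitor of calcification in cartilage and arteries. It stood at 7.98 and 9.80 FPKM with si-RAB23-9, at 10.5 and 10.0 FPKM with si-RAB23-1, and at 4.17 and 4.96 FPKM with si-NC. Libraries of both RAB23 siRNAs were above those of si-NC, and the siRNAs lay close to each other without overlapping. The mean was 1.95 times that of si-NC with si-RAB23-9 and 2.25 times with si-RAB23-1. The log2 differences from si-NC were 0.83 for si-RAB23-9 and 1.02 for si-RAB23-1, ranks 81 and 40 of 14352, with a standard error of 0.11. Set side by side, the siRNAs lay close together for MGP (si-RAB23-9 minus si-RAB23-1, -0.19) and far apart for SPP1, which with si-RAB23-9 was at 0.22 times its si-RAB23-1 mean. MGP overlaps C12orf60 on the opposite strand, a gene at 0.452 to 0.955 FPKM, and the strandedness of the libraries is not given, so reads in the shared part are uncertain.

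FN1 (ENSG00000115414, chromosome 2, 215360440 to 215436172, minus strand) encodes fibronectin, the adhesive glycoprotein that cells assemble into fibrils through alpha5 beta1 integrin. It stood at 18.4 and 19.6 FPKM with si-RAB23-9, at 22.95 and 25.1 FPKM with si-RAB23-1, and at 12.4 and 13.6 FPKM with si-NC. The groups did not overlap and lay in the order si-RAB23-1, si-RAB23-9, si-NC from the highest down. FN1 rose with si-RAB23-1 by 0.84 on the log2 scale (SE 0.06, adjusted p = 0.00315), a ratio of means of 1.85. It rose with si-RAB23-9 by 0.52 (adjusted p = 0.00926), a ratio of 1.46, and was lower with si-RAB23-9 than with si-RAB23-1 by a log2 difference of -0.32 (adjusted p = 0.0234). The si-RAB23-9 call was lost without si-NC replicate 1 (adjusted p = 0.0619), si-RAB23-9 replicate 1 (0.0523) or si-RAB23-9 replicate 2 (0.0727). The call between the siRNAs was lost without si-RAB23-9 replicate 1 (0.115), si-RAB23-9 replicate 2 (0.0796) or si-RAB23-1 replicate 2 (0.0643), and with no filter on low values (0.0744).

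THBS1 (ENSG00000137801, chromosome 15, 39581079 to 39599466, plus strand) encodes thrombospondin 1, which activates latent TGF-beta and binds CD36 and CD47. It stood at 50.5 and 50.2 FPKM with si-RAB23-9, at 94.5 and 90.0 FPKM with si-RAB23-1, and at 43.8 and 48.2 FPKM with si-NC. Both si-RAB23-1 libraries lay well above the other 4, and the si-RAB23-9 libraries lay just above those of si-NC. THBS1 rose with si-RAB23-1 to 2.01 times its si-NC mean (log2 difference 0.99, SE 0.05, adjusted p = 0.00184). With si-RAB23-9 the ratio was 1.09 and did not pass (log2 difference 0.13, adjusted p = 0.175). The siRNAs themselves differed, with si-RAB23-9 at 0.55 times the si-RAB23-1 mean (log2 difference -0.86, adjusted p = 0.00131). THBS1 overlaps the sense intronic gene AC037198.1 on the same strand, which was at 0.615 to 2.33 FPKM, far below THBS1 itself, and FSIP1 at 0.0653 to 0.245 FPKM.

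TGFBI (ENSG00000120708, chromosome 5, 136028895 to 136063818, plus strand) encodes a TGF-beta-induced matrix protein that binds integrins and collagens. It stood at 61.7 and 61.9 FPKM with si-RAB23-9, at 63.7 and 61.1 FPKM with si-RAB23-1, and at 52.5 and 51.5 FPKM with si-NC. The RAB23 siRNAs overlapped each other and both lay above si-NC. The rise was small: 1.19 times the si-NC mean with si-RAB23-9 (log2 difference 0.24, adjusted p = 0.0114) and 1.2 times with si-RAB23-1 (0.26, SE 0.03, adjusted p = 0.00954). Between the siRNAs the difference was -0.01 (adjusted p = 0.809), and its sign turned without si-RAB23-1 replicate 1 and with voom, limma's test for reads, on the recovered reads. The si-RAB23-9 call was lost without any 1 library of si-RAB23-9 or si-NC (adjusted p 0.0704 to 0.0886), and the si-RAB23-1 call without si-NC replicate 1 or si-NC replicate 2 (0.0610 and 0.0738).

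TNC (ENSG00000041982, chromosome 9, 115019578 to 115118257, minus strand) encodes tenascin C, a large anti-adhesive glycoprotein that interferes with adhesion to fibronectin. It stood at 10.8 and 11.4 FPKM with si-RAB23-9, at 6.93 and 7.38 FPKM with si-RAB23-1, and at 9.93 and 11.4 FPKM with si-NC. The si-RAB23-1 libraries were below all others, and si-RAB23-9 overlapped si-NC. TNC fell with si-RAB23-1 to 0.67 times its si-NC mean (log2 difference -0.51, SE 0.07, adjusted p = 0.0116). With si-RAB23-9 it was at 1.05 times the si-NC mean (log2 difference 0.06, adjusted p = 0.634), and without si-NC replicate 1 that difference turned to -0.03. With si-RAB23-9 it was 1.55 times its si-RAB23-1 mean (log2 difference 0.57, adjusted p = 0.00687). The fall with si-RAB23-1 was not called without si-RAB23-1 replicate 1 (adjusted p = 0.0532) or si-NC replicate 2 (0.0592), and the difference between siRNAs was not called without si-RAB23-9 replicate 2 (0.0519). DEC1, which overlaps TNC, was at 0.0271 to 0.0908 FPKM.

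SPARC (ENSG00000113140, chromosome 5, 151661096 to 151687165, minus strand) encodes a collagen-binding glycoprotein that lessens cell adhesion. It stood at 4.49 and 4.51 FPKM with si-RAB23-9, at 1.72 and 2.25 FPKM with si-RAB23-1, and at 3.04 and 3.41 FPKM with si-NC. The groups did not overlap, and si-RAB23-9 was the highest and si-RAB23-1 the lowest. These levels rest on 410 and 387 reads with si-RAB23-9, 138 and 242 reads with si-RAB23-1, and 351 and 322 reads with si-NC.

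SPARC with si-RAB23-9 was at 2.27 times its si-RAB23-1 mean (log2 difference 0.89, adjusted p = 0.00497). It fell with si-RAB23-1 to 0.62 times its si-NC mean (log2 difference -0.50, SE 0.10, adjusted p = 0.0273), and with si-RAB23-9 it was at 1.40 times that mean without passing the test (0.38, adjusted p = 0.0613). The fall with si-RAB23-1 passed without si-RAB23-1 replicate 2, but not without si-RAB23-9 replicate 1 (0.0618) or replicate 2 (0.0612), si-RAB23-1 replicate 1 (0.0674), or si-NC replicate 1 (0.0910) or replicate 2 (0.141). It was also lost with no filter on low values (0.0940) and in a fit of the 2 groups only (0.0638). The si-RAB23-9 difference from si-NC was called without si-RAB23-1 replicate 1 (0.0312) or replicate 2 (0.0324), in a fit of those 2 groups only (0.0298) and with voom on the recovered reads (0.000753). CLMAT3, which overlaps SPARC, was at 0 to 0.0551 FPKM.

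**Figure D2:**
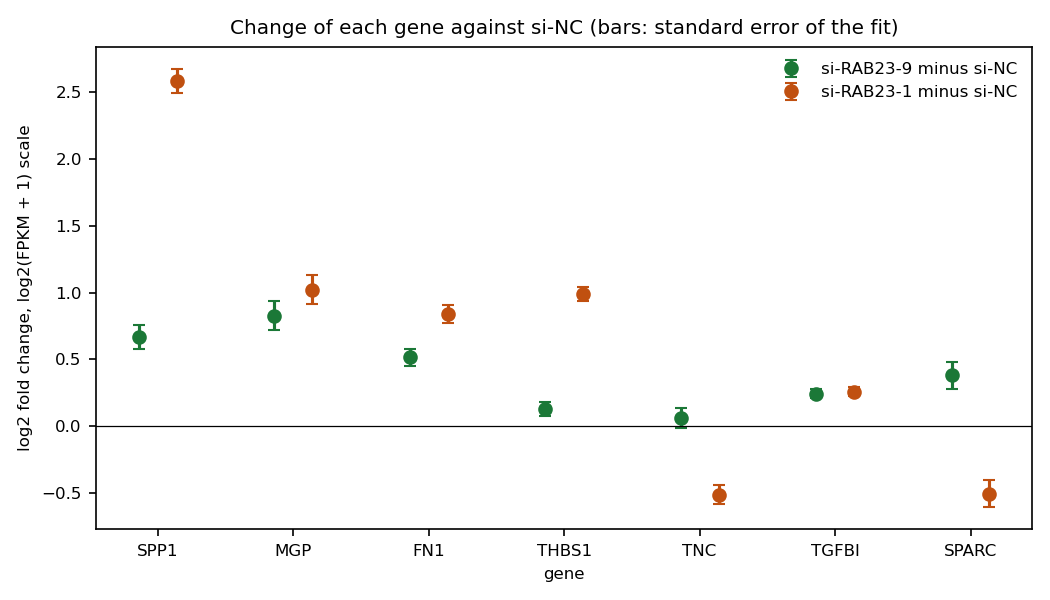
Differences of each gene from si-NC on the log2(FPKM + 1) scale for si-RAB23-9 and si-RAB23-1; points are limma estimates and bars their standard errors, and both share the si-NC libraries. SPP1 is the farthest from 0 (2.58 with si-RAB23-1), and TNC and SPARC lie below 0 with si-RAB23-1.

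Of the 5 members tested (all but SPP1 and MGP), 2 were called higher and 0 lower with si-RAB23-9 against si-NC, and 3 higher and 2 lower with si-RAB23-1. Over all 14352 genes tested, 13.3% were called with si-RAB23-9 (7.56% higher and 5.69% lower) and 15.4% with si-RAB23-1 (8.13% higher and 7.26% lower). The median log2 difference of all 7 members was 0.38 with si-RAB23-9 and 0.84 with si-RAB23-1. It includes SPP1 and MGP, which were chosen by their fold changes. The median of all genes tested was 0.006 with si-RAB23-9 and 0.008 with si-RAB23-1. Between the siRNAs, 2 of the 5 were called higher (TNC and SPARC) and 2 lower (FN1 and THBS1) with si-RAB23-9 than with si-RAB23-1, beside 11.1% of genes higher and 9.89% lower (21.0% in all). Since the members were chosen with these contrasts known, nothing is read from the counts or the medians. Both comparisons with si-NC also share its 2 libraries.

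By level, TGFBI was the most abundant of the 7 with si-RAB23-9 and with si-NC, followed by THBS1, FN1, TNC, MGP, SPARC and SPP1. With si-RAB23-1 the order was THBS1, TGFBI, FN1, SPP1, MGP, TNC and SPARC. These orders rest on 1 deposited length per gene, from 2321 bases for SPP1 to 17315 for FN1, as do the ranks and shares below. Whether that length matches the transcripts present was not tested. Within each group, no neighbours in these orders overlapped in range. SPP1 was thus the fourth of the 7 with si-RAB23-1 and the lowest of the 7 in the other groups. Among all genes of the table it ranked 9221 with si-RAB23-9, 3272 with si-RAB23-1 and 11719 with si-NC. The 7 genes together came to 157 and 161 FPKM with si-RAB23-9, 216 and 210 FPKM with si-RAB23-1, and 127 and 135 FPKM with si-NC. SPP1 made up 1.85% and 2.25% of that sum with si-RAB23-9, 7.15% and 6.92% of it with si-RAB23-1, but 1.27% and 1.28% of it with si-NC.

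Other matricellular proteins formed a list of 36 genes, of which 15 passed the filter on low values. With si-RAB23-9 against si-NC, 2 rose and 3 fell, and with si-RAB23-1, 3 rose and 2 fell. Beside this, 13.3% of all genes tested were called with si-RAB23-9 and 15.4% with si-RAB23-1. This list and those below were chosen with earlier results known, so nothing is read from their counts. CTGF and CYR61, secreted CCN proteins that are standard YAP targets, both fell with si-RAB23-9 and both rose with si-RAB23-1. CTGF averaged 5.89 ± 0.28 FPKM with si-RAB23-9, 18.7 ± 1.93 FPKM with si-RAB23-1 and 8.06 ± 0.63 FPKM with si-NC (SD, n = 2 each), with log2 differences from si-NC of -0.39 for si-RAB23-9 (adjusted p = 0.0381) and 1.12 for si-RAB23-1 (adjusted p = 0.00309). CYR61 averaged 35.02 ± 0.89 FPKM with si-RAB23-9, 100.1 ± 11.6 FPKM with si-RAB23-1 and 47.1 ± 0.56 FPKM with si-NC, with differences of -0.42 for si-RAB23-9 (adjusted p = 0.0238) and 1.07 for si-RAB23-1 (adjusted p = 0.00282). The siRNAs differed by -1.51 for CTGF (adjusted p = 0.0013) and -1.48 for CYR61 (adjusted p = 0.00129). The falls of both with si-RAB23-9 were lost without any 1 library of si-RAB23-9 or si-NC (adjusted p up to 0.178 for CTGF and 0.122 for CYR61).

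The galectin LGALS1 fell with si-RAB23-9 (-0.28, adjusted p = 0.0199), and FBLN1, a fibulin, fell with si-RAB23-1 (-0.38, adjusted p = 0.0273). Each of these was lost on leaving out single libraries, LGALS1 in 3 of the 6 cases (either si-RAB23-9 library or si-NC replicate 1) and FBLN1 in 5 of 6 (all but si-RAB23-1 replicate 2). LGALS3, another galectin, was higher with si-RAB23-9 than with si-RAB23-1 (0.38, adjusted p = 0.00677), a call lost without si-RAB23-9 replicate 2. The list's median log2 difference was 0.04 with si-RAB23-9 and 0.02 with si-RAB23-1.

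Of 21 receptors, 15 were tested. With si-RAB23-9, 3 rose and 3 fell, beside 13.3% of all genes called. With si-RAB23-1, 4 rose and 4 fell, beside 15.4% of all genes called. SDC4 (syndecan 4, a fibronectin co-receptor) rose to 113.9 ± 3.795 FPKM with si-RAB23-9 and 116.7 ± 7.74 FPKM with si-RAB23-1, against 79.9 ± 0.72 FPKM with si-NC (adjusted p = 0.00582 for si-RAB23-9 and 0.0045 for si-RAB23-1). ITGB8, whose product pairs with alphaV integrin to activate TGF-beta, rose by 0.45 with si-RAB23-9 and by 0.52 with si-RAB23-1 (adjusted p = 0.008 for si-RAB23-9 and 0.00522 for si-RAB23-1). ITGB1, the beta chain of the main fibronectin receptor, fell to 54.4 ± 1.42 FPKM with si-RAB23-9 and 41.1 ± 0.96 FPKM with si-RAB23-1, against 62.1 ± 1.23 FPKM with si-NC (log2 difference -0.19, adjusted p = 0.0294 for si-RAB23-9; -0.58, adjusted p = 0.00211 for si-RAB23-1). The collagen and laminin receptor chains ITGA2 and ITGA3 fell with si-RAB23-9 (-0.34 for ITGA2 and -0.35 for ITGA3). CD44, the receptor of osteopontin outside the integrins, rose slightly, by 0.17 with si-RAB23-9 and by 0.16 with si-RAB23-1, at 44.4 ± 1.29 FPKM with si-RAB23-9, 44.1 ± 1.11 FPKM with si-RAB23-1 and 39.4 ± 0.72 FPKM with si-NC. Leaving out 1 library at a time, the si-RAB23-1 calls of SDC4, ITGB8 and ITGB1 held in 6 of 6 cases. Those with si-RAB23-9 were lost without si-NC replicate 2 for SDC4, without either si-RAB23-9 library or si-NC replicate 1 for ITGB8 and ITGA3, and without any 1 library of si-RAB23-9 or si-NC for ITGB1, ITGA2 and CD44; the si-RAB23-1 call of CD44 held in none. ITGA5, the alpha5 chain, was higher with si-RAB23-9 than with si-RAB23-1 (0.42, adjusted p = 0.00882), a call lost without either si-RAB23-9 library. The list's median log2 difference was 0.02 with each siRNA.

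**Figure D3:**
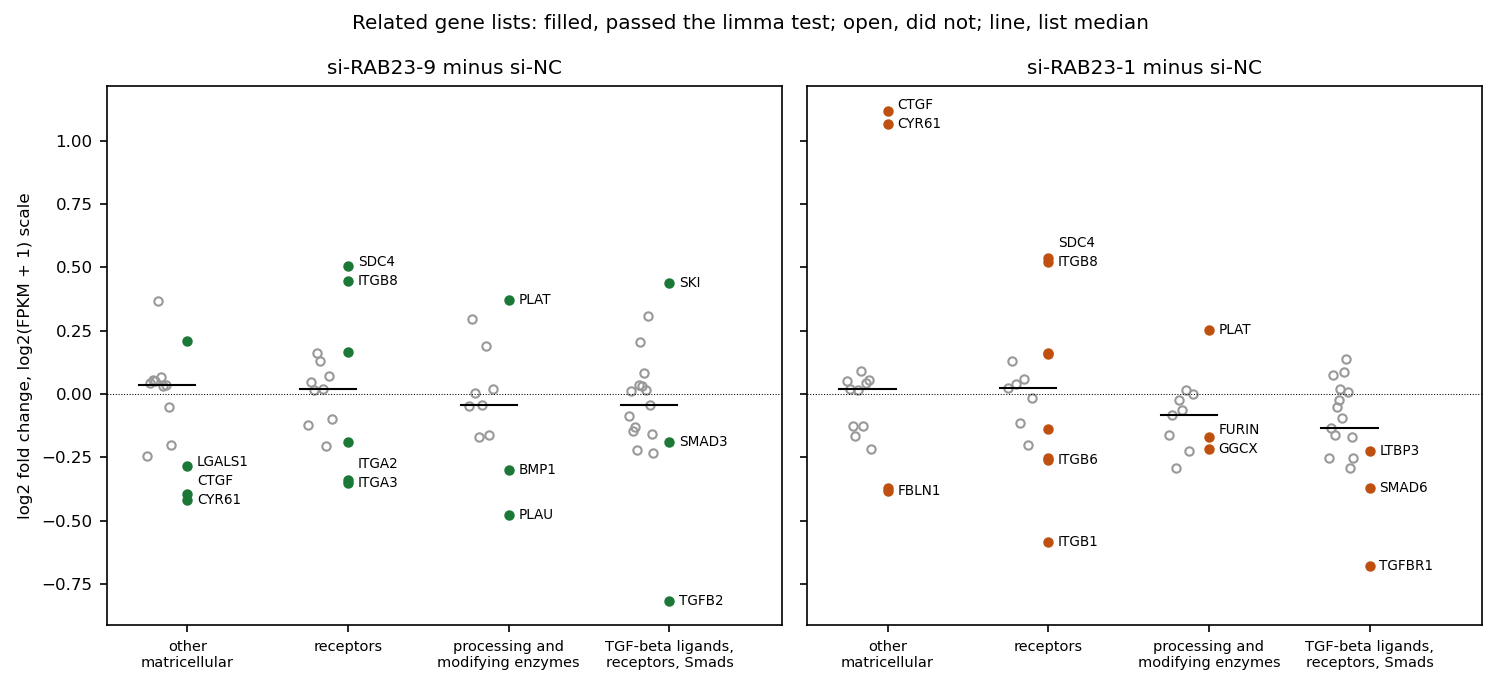
Log2(FPKM + 1) differences from si-NC for the tested genes of the 4 related lists, with si-RAB23-9 in the left panel and si-RAB23-1 in the right; each point is a gene, filled points passed an adjusted p under 0.05, and lines are list medians over all tested genes (1 gene of the other matricellular proteins is not drawn). Each list has called genes on both sides of 0 with si-RAB23-9, and CTGF and CYR61 sit above 1 with si-RAB23-1.

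Enzymes that cut or modify these proteins formed a list of 21 genes, 11 of them tested. With each siRNA 1 rose and 2 fell, beside 13.3% of all genes called with si-RAB23-9 and 15.4% with si-RAB23-1. PLAU, the urokinase gene, fell with si-RAB23-9 to 52.6 ± 0.10 FPKM, against 73.7 ± 4.80 FPKM with si-NC (-0.48, adjusted p = 0.00633), a call lost without si-RAB23-9 replicate 1 or si-RAB23-9 replicate 2. PLAT, the tissue plasminogen activator, rose by 0.37 with si-RAB23-9 (adjusted p = 0.0158) and by 0.25 with si-RAB23-1 (adjusted p = 0.0404). GGCX, the carboxylase that modifies the Gla residues of MGP, fell slightly with si-RAB23-1 (-0.22, limma adjusted p = 0.0428). GGCX was at 5.61 ± 0.14 FPKM there, against 6.69 ± 0.32 FPKM with si-NC. With si-RAB23-9 it was at 5.82 ± 0.12 FPKM, also below si-NC but without passing (-0.17, limma adjusted p = 0.084). FAM20C, the secretory-pathway kinase of osteopontin, was higher with si-RAB23-9 (4.10 ± 0.30 FPKM) than with si-RAB23-1 (2.40 ± 0.14 FPKM; 0.59, adjusted p = 0.00695). The PLAT call with si-RAB23-9 held in 2 of 6 cases with 1 library left out (the si-RAB23-1 libraries), and those of PLAT and GGCX with si-RAB23-1 in 0 of 6; that of FAM20C was lost without si-RAB23-9 replicate 2. The list's median was -0.04 with si-RAB23-9 and -0.08 with si-RAB23-1.

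Of 18 TGF-beta ligands, receptors and Smads, 17 were tested. With si-RAB23-9, 1 rose and 2 fell, beside 13.3% of all genes called. With si-RAB23-1, 0 rose and 3 fell, beside 15.4% of all genes called. TGFB2, a TGF-beta ligand, fell with si-RAB23-9 to 1.22 ± 0.04 FPKM, against 2.91 ± 0.20 FPKM with si-NC (-0.82, limma adjusted p = 0.00473). With si-RAB23-1 TGFB2 was at 2.19 ± 0.02 FPKM, also below si-NC but without passing (-0.29, limma adjusted p = 0.0581). TGFBR1, the type I receptor, fell with si-RAB23-1 to 26.3 ± 0.80 FPKM, against 42.8 ± 2.13 FPKM with si-NC (-0.68, adjusted p = 0.00224). SKI, a repressor of Smad signalling, rose with si-RAB23-9 (0.44, adjusted p = 0.00845), and SMAD6, an inhibitory Smad, fell with si-RAB23-1 (-0.37, adjusted p = 0.0262). The calls of TGFB2 and TGFBR1 held in 6 of 6 cases with 1 library left out, that of SKI in 2 (the si-RAB23-1 libraries) and that of SMAD6 in 1 (si-RAB23-1 replicate 2). The list's median was -0.04 with si-RAB23-9 and -0.13 with si-RAB23-1. Between the siRNAs, 3 of the 15 other matricellular genes tested were higher and 2 lower with si-RAB23-9. Among the receptors 4 were higher and 3 lower, among the enzymes 2 and 1, and among the TGF-beta genes 4 and 2. Over all genes tested, 11.1% were higher and 9.89% lower in that comparison (21.0% in all).

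The 3′ UTRs were searched for GACATAT and AAGTTAA, the 7-base words that an earlier analysis of these data had tied to the genes lowered by si-RAB23-1 and by si-RAB23-9. The counts below are thus no independent evidence. The word AAGTTAA lies in the 3′ UTR of 15.8% of 19128 genes, and 17.7% of its 1955 tested carriers were lower with si-RAB23-9, against 4.22% of 8954 others. GACATAT lies in 7.73% of genes, and 26.0% of its 906 tested carriers were lower with si-RAB23-1, against 7.12% of 10003 others. GACATAT was in 0 of the 7 members, among them TNC and SPARC, which fell with si-RAB23-1. AAGTTAA was in SPARC alone, at base 981 of a 2475-base 3′ UTR (chr5:151662574-151662600, minus strand, GRCh38), shown with the word in capitals because SPARC was at its highest with si-RAB23-9.
SPARC: agaaacttcaAAGTTAAtgggatggtc

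Of the 11 genes of the related lists that fell with si-RAB23-1, ITGB1 and TGFBR1 carry GACATAT. Of the 10 that fell with si-RAB23-9, CTGF carries AAGTTAA. Over all tested genes with a 3′ UTR, 236 carriers of GACATAT and 712 other genes were lower with si-RAB23-1. With si-RAB23-9, 347 carriers of AAGTTAA and 378 other genes were lower. Nothing is read from the carriers in the lists, and the part of either word in their falls was not tested.

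Genes whose pattern over the 6 libraries was most like that of SPP1 or MGP were ranked by Pearson r of log2(FPKM + 1), among genes whose group means spanned at least 50% of the member's own span. For SPP1, 61 genes qualified and TM4SF1, a tetraspanin-like surface protein, came first (r = 0.99), at 24.6 FPKM with si-RAB23-9, 45.7 FPKM with si-RAB23-1 and 17.2 FPKM with si-NC. The next were RF00019 (r = 0.92) and MIR4534 (r = 0.92), with 8 and 4 reads in all, each of them in si-RAB23-1 libraries, so both rest on very few reads. CTGF (r = 0.87) and CYR61 (r = 0.86) followed, though both were lower in si-RAB23-9 than in si-NC libraries while SPP1 was higher. For MGP, 1556 genes qualified, led by ITGB8 (r = 0.99), PRDX4 (0.99), COL17A1 (0.98), NOLC1 (0.98) and GNPDA1 (0.98). COL17A1, the hemidesmosomal collagen, was at 117.9 FPKM with si-RAB23-9, 134.5 FPKM with si-RAB23-1 and 80.5 FPKM with si-NC. These coefficients describe 6 libraries in 3 groups and carry no test.

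**Figure D4:**
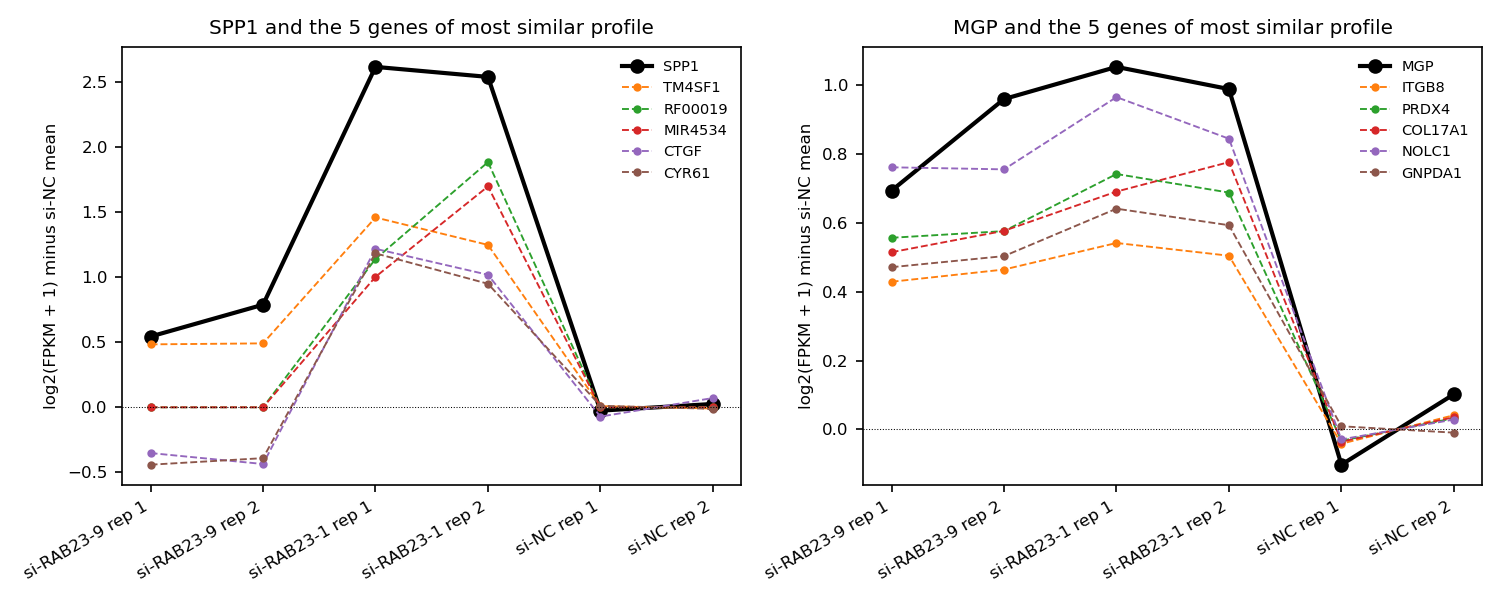
Log2(FPKM + 1) minus the si-NC mean in each library for SPP1 and for MGP with the 5 genes most like each; points are libraries and lines join the points of 1 gene. CTGF and CYR61 lie below 0 with si-RAB23-9 and above it with si-RAB23-1, while SPP1 and TM4SF1 lie above 0 with both.

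Markers of cell types known for these proteins were low. For fibroblasts, 1 of 10 markers averaged at least 1 FPKM (COL1A1), with summed levels of 3.76 to 3.94 FPKM with si-RAB23-9, 3.45 to 3.54 FPKM with si-RAB23-1 and 3.46 to 3.48 FPKM with si-NC. COL1A2, DCN, LUM, PDGFRA, THY1 and DPT were at 0. For macrophages, a common source of osteopontin, 1 of 7 did so (CSF1R), with sums of 3.82 to 4.29 FPKM with si-RAB23-9, 5.09 to 5.23 FPKM with si-RAB23-1 and 5.61 to 5.89 FPKM with si-NC, and CD163 was at 0. For osteoblasts, 2 of 5 did so, RUNX2 and COL1A1. COL1A1 is the same gene counted for fibroblasts and made up most of the osteoblast sum. The osteoblast sums were 5.26 to 5.66 FPKM with si-RAB23-9, 5.41 to 5.59 FPKM with si-RAB23-1 and 5.50 to 5.72 FPKM with si-NC. For endothelium, 1 of 6 did so (CDH5), with sums of 2.88 to 3.39 FPKM with si-RAB23-9, 1.71 to 2.25 FPKM with si-RAB23-1 and 3.92 to 3.97 FPKM with si-NC, and KDR was at 0. Among the squamous markers, SFN made up most of each sum, at 264 and 262 FPKM with si-RAB23-9, 292 and 301 FPKM with si-RAB23-1 and 311 and 291 FPKM with si-NC. The others did not move as 1 group. SOX2 was above si-NC with both siRNAs. It stood at 65.4 and 62.5 FPKM with si-RAB23-9, 59.2 and 66.2 FPKM with si-RAB23-1 and 35.8 and 40.6 FPKM with si-NC. KRT13, KRT6A and KRT14 were also above si-NC with both siRNAs. TP63 was below si-NC with si-RAB23-9 and above it with si-RAB23-1. DSG3, KRT17 and the low KRT5 overlapped si-NC with si-RAB23-9 and were above it with si-RAB23-1. S100A2 was below si-NC with si-RAB23-9 and overlapped it with si-RAB23-1, at 12.2 and 10.6 FPKM with si-RAB23-9, 20.3 and 17.7 FPKM with si-RAB23-1 and 18.2 and 18.1 FPKM with si-NC. The part of these markers in the members' results was not tested.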

How the data were processed

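RNA sequencing of 6 KYSE30 libraries was deposited as FPKM per gene, fragments scaled by the authors to gene length and library size. The build hg19 and the tools STAR 2.5.1b, RSEM 1.2.29, Trimmomatic 0.36, FastQC and edgeR 3.8.5 are named, without roles, per the submitters' processing notes. The deposited coordinates of all 58735 genes equal GENCODE release 29, so coordinates here are on GRCh38. The sources used here give no strandedness, read length or time of harvest.

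FPKM times gene length gave whole reads for 100% of values within 0.01 of a read, 17211025 to 24178125 per library. This number of reads sets the counting error of low genes. Libraries were grouped by title. Replicates differed by more than sampling noise (chi-square per degree of freedom 1.72 with si-RAB23-9, 3.27 with si-RAB23-1 and 2.23 with si-NC). That excess may be technical and does not show separate cultures. Each library was counted as 1 sample.

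The main test was limma 3.58.1 (R 4.3.3), applied to log2(FPKM + 1) with 1 mean per group over all 6 libraries and eBayes with a trend (3 residual degrees of freedom). It covered 14352 genes with an FPKM of 1 or more in 2 or more libraries. P-values were two-sided and adjusted over all of these genes (Benjamini-Hochberg), with calls made under 0.05. The code was tested on simulated data. Alternatives were other pseudocounts, other filters, median scaling, voom on the recovered reads, a fit of 2 groups only, a replicate block and leaving out each library.

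Members and gene lists were chosen with earlier results of these data known. The genes named were the 7 members, RAB23 and the 5 genes most like SPP1 and MGP. Up to 4 called genes of largest change per list and comparison were named too. ANXA2, ITGB6, BMP1, FURIN, LTBP3 and SMAD3 also met that rule but are not described in the text. Of the list of other matricellular proteins, 1 gene is counted but not reported here. Outside that rule, CD44 was named as the osteopontin receptor, ITGB1 with si-RAB23-9 as the pair of its si-RAB23-1 value, and overlapping genes and markers for their levels. Motifs were chosen after the promoter sequences were seen. RefSeq promoters (GRCh38.p14) matched 6 of the 7 members, MGP being the other.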

Additional observations from a re-analysis of the deposited data

Results flagged for a closer look

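TNC and SPARC stood out because their mean differences from si-NC had opposite signs for the siRNAs and the direct test between the siRNAs passed, although neither difference with si-RAB23-9 passed by itself. For TNC, si-RAB23-9 minus si-RAB23-1 was 0.57 on the log2(FPKM + 1) scale (limma adjusted p = 0.00687). TNC differed from si-NC by 0.06 with si-RAB23-9 (adjusted p = 0.634, groups overlapping) and by -0.51 with si-RAB23-1. Without si-NC replicate 1 the si-RAB23-9 difference was -0.03, so the opposite sign does not hold for TNC. For SPARC, the difference between the siRNAs was 0.89 (adjusted p = 0.00497), with 0.38 from si-NC for si-RAB23-9, which did not pass, and -0.50 for si-RAB23-1. The SPARC difference between the siRNAs passed in each of the alternatives in which SPARC was tested.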

How the results depend on the processing

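No called member changed direction. Of the differences not called, that of TNC with si-RAB23-9 lay between -0.0272 and 0.15 on leaving out 1 library, and was negative without si-NC replicate 1. That of TGFBI between the siRNAs was 0.013 with voom on library totals, and -0.0429 to 0.0159 on leaving out 1 library (the positive sign without si-RAB23-1 replicate 1). Without the filter on low values, calls fell to 552 higher and 431 lower with si-RAB23-9, 543 higher and 506 lower with si-RAB23-1, and 771 and 687 between the siRNAs. SPARC was then not called with si-RAB23-1, leaving 1 member lower, and FN1 was not called between the siRNAs (adjusted p = 0.0744), leaving 1 lower there. Fitting only the 2 groups compared gave 633 higher and 601 lower with si-RAB23-1 and 1036 and 883 between the siRNAs, with 1 member lower with si-RAB23-1, and it called SPARC higher with si-RAB23-9 (adjusted p = 0.0298). Voom on the recovered reads gave 1872 higher and 1536 lower with si-RAB23-9, 2178 lower with si-RAB23-1 and 2695 higher between the siRNAs. With median-of-ratios sizes, chosen after seeing the data, it gave 1878 higher and 1533 lower with si-RAB23-9, 1992 higher and 1831 lower with si-RAB23-1. A mean FPKM of at least 5 left SPARC untested, so 1 member was lower with si-RAB23-1 and 1 higher between the siRNAs. The cause of the other shifts was not tested.

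Leaving out 1 library at a time gave 143 to 1173 higher and 115 to 902 lower genes with si-RAB23-9, 173 to 954 higher and 165 to 866 lower genes with si-RAB23-1, and 375 to 1376 and 330 to 1315 between the siRNAs. Of the 5 members tested, 0 to 3 were called higher and 0 lower with si-RAB23-9, 2 to 3 higher and 0 to 2 lower with si-RAB23-1, and 1 to 2 higher and 1 to 2 lower between the siRNAs. The count with si-RAB23-9 was 0 if either si-RAB23-9 library or si-NC replicate 1 was left out, and 1 if si-NC replicate 2 was. Calls of THBS1 with si-RAB23-1 and between the siRNAs, and of FN1 with si-RAB23-1, passed in all alternatives run. With both kinds of library size, voom called 4 members higher with si-RAB23-9, THBS1 (adjusted p = 0.0232) and SPARC (adjusted p = 0.000753) among them.

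Deviations of same-numbered libraries correlated at 0.06, -0.06 and -0.02, so no large effect shared by the same number was seen. This cannot exclude that same-numbered libraries were handled together. The fit with a replicate block called 828 higher and 609 lower with si-RAB23-9, 856 higher and 799 lower with si-RAB23-1, and 1299 and 1124 between the siRNAs, and the members' counts did not change. A planned count model in edgeR was not run; voom was the test run on the recovered reads. SPP1 rests on 78 to 752 reads per library, which sets its counting error.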
